A study of Mus musculus with 20 samples.

Results

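The tumor necrosis factor (TNF) ligands and their receptors were followed in mouse brain across 4 groups of 5 arrays. Members were found by gene symbol, as every gene named Tnfrsf or Tnfsf with a number, together with Tnf, Lta, Ltb, Ltbr, Fas, Fasl, Cd27, Cd40 and Cd70. This gave 39 of the 20970 genes with a symbol and a value, on 49 probes. Of these genes 15 encode ligands and 24 encode receptors.

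All mice were C57BL/6J males and carried a Tet-binding protein driven by the GFAP promoter, which is active in astrocytes. Tat+ mice also carried the HIV Tat transgene under the promoter that this protein switches on, and doxycycline was given to every group at 100 mg/kg, the Tat− groups included. During the acquisition phase the mice received saline (Tat−/Sal and Tat+/Sal) or methamphetamine at 2 mg/kg (Tat−/Meth and Tat+/Meth) for 7 days. The methods then give 7 days of abstinence, a challenge with 1 mg/kg Meth and caudate putamen collected 1 h later at an age of 3 to 5 months, whereas the labels name the left hemisphere of mice aged 6 to 7 weeks, collected 24 h after their final injection. Each array held RNA of 1 mouse. Levels of the Tat transgene were not analysed here.

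Most TNF ligands are made as trimers on the cell surface, from which proteases can release them, and they act by clustering their receptors. Receptors with a death domain can start caspase activation, those that bind TRAF adaptors mainly activate NF-κB and stress kinases, and decoy receptors bind a ligand without passing on a full signal. In the brain, microglia and astrocytes make and sense several of these ligands, whereas many others are known mainly from lymphocytes.

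Signal is given below as the log2 of the background-subtracted intensity, scaled to the 75th percentile of its array, and the brightest probe stood for its gene. Genes entered the test if any group averaged 6 or more on this scale, and 15102 did. All 4 groups were fitted together with limma over these genes. A member is said to be called if it differed by more than 2-fold and its *p*, adjusted by Benjamini and Hochberg's method, was under 0.05. A member that met the adjusted *p* alone is said to have passed.

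Slide and group were not independent. Slide 1 held Tat−/Meth alone (5 arrays), slide 2 Tat−/Sal (5) with Tat+/Meth replicates 1, 2 and 3, and slide 3 Tat+/Sal (5) with Tat+/Meth replicates 4 and 5. Bright corner control spots lay at 14.67 to 15.06 on slide 1 and at 16.79 to 17.44 on the others. In every comparison with Tat−/Meth, therefore, the group and its slide cannot be told apart. Markers of striatal neurons were well above background on all arrays (9 of 9), as were those of microglia (12 of 12) and astrocytes (7 of 7), and of cortical neuron markers 2 of 5 were.

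Receptors were found more widely than ligands. The scanner software marked a probe as well above background on each array, and 20 members carried this mark on all 20 arrays. They comprised 15 receptors and 5 ligands. Another 15 members carried it on some arrays. Tnf itself, the ligand after which the family is named, was well above background on 0 of 20 arrays, with values of 2.45 to 4.84 in Tat−/Meth and of 3.67 to 4.47 over the other groups. The same count of 0 was found for Cd40, the receptor through which T cells activate B cells and myeloid cells, for Tnfsf11, the ligand of Tnfrsf11a, and for Tnfsf4, the ligand of Tnfrsf4.

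Of the 39 members 24 passed the signal limit, 18 of 24 receptors and 6 of 15 ligands. A limit that any single group can satisfy admits a gene through the group in which it is high, so that counts over the tested members leave out members that were dim everywhere. By role, 5 of 5 death domain receptors, 3 of 3 decoy receptors and 10 of 15 TRAF-binding receptors passed.

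**Figure D1:**
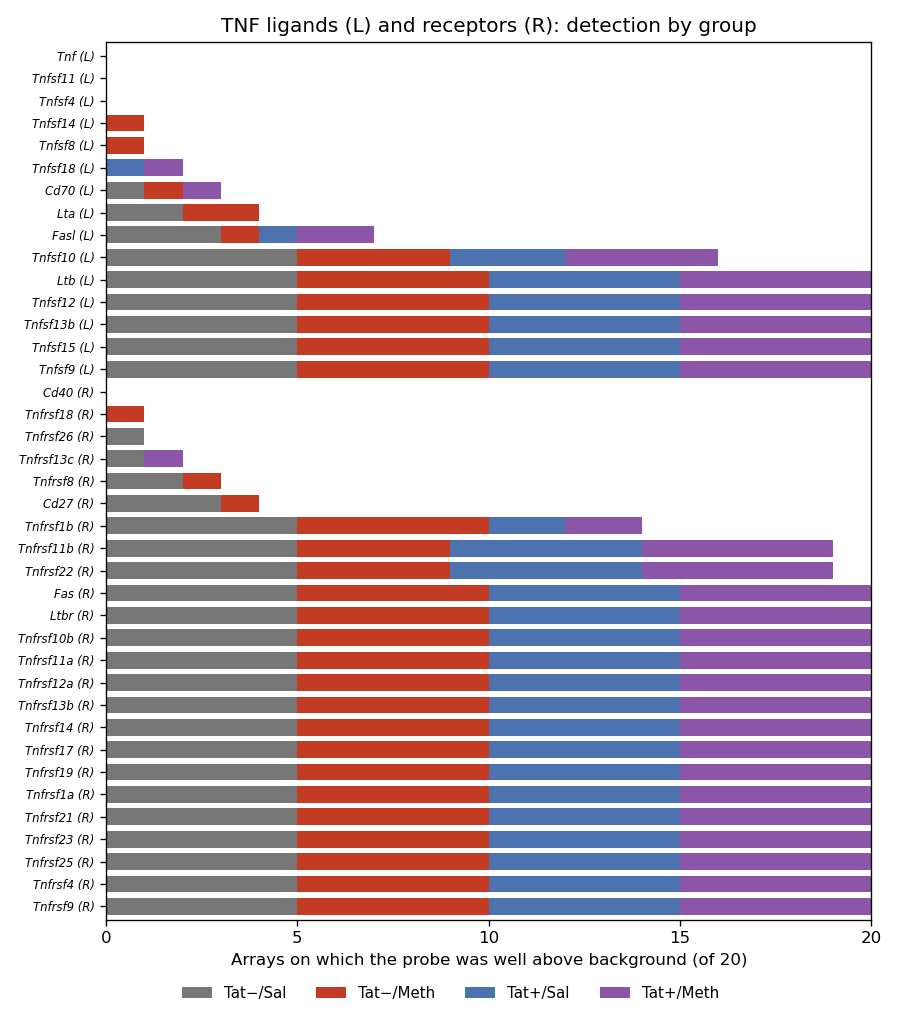
Number of arrays, of 20, on which the probe of each of the 39 members was well above background, stacked by group (up to 5 arrays each). Ligands (L) are above and receptors (R) below. Of the members, 20 reach 20 arrays and Tnf, Tnfsf11, Tnfsf4 and Cd40 are at 0.

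Of the 15 members under the limit 11 were well above background on at least 1 array. Fasl, the ligand of Fas, carried the mark on 3 Tat−/Sal arrays, 1 Tat−/Meth array, 1 Tat+/Sal array and 2 Tat+/Meth arrays, and its highest value, 8.46, was in Tat−/Sal replicate 5 against 4.24 to 4.98 in the other 4. Cd27, a costimulatory receptor of T and B cells, was marked on 3 of 5 Tat−/Sal arrays, on 1 of 5 Tat−/Meth arrays and on 0 arrays of either Tat+ group. Fasl and Cd27 were tested because each carried the mark on at least 3 arrays of a group, Tat−/Sal in both cases. More marks in that group were thus a condition of their being tested. In exact two-sided permutation tests of both in the 5 comparisons of groups (10 tests), the smallest *p* was 0.230 before adjustment. It was that of Fasl in Tat+/Sal vs. Tat−/Sal, and 5 arrays against 5 allow no *p* below 0.00794.

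Lta, which encodes the secreted lymphotoxin, was marked on 2 of 5 arrays in each Tat− group and on 0 arrays of the Tat+ groups. Against the background limit of the Tat+/Meth arrays it was at least 1.40-fold higher in Tat−/Meth, a bound that was not tested and that includes the 7.55 of Tat−/Meth replicate 5, where the other 4 arrays were between 4.82 and 5.83. For no other member under the limit did such a bound exceed 1.

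Cd70, the ligand of Cd27, was marked on 3 arrays in all, 1 in each group other than Tat+/Sal. Tnfrsf8, an activation receptor of lymphocytes, was marked on 3 arrays, its ligand Tnfsf8 on 1, and Tnfsf14, a ligand of Ltbr and Tnfrsf14, on 1. Tnfrsf13c, the receptor through which BAFF keeps B cells alive, was marked on 2 arrays, as was Tnfsf18, and the receptor of the latter, Tnfrsf18, on 1. Tnfrsf26 was marked on 1. Marks of the 15 members were not spread evenly over arrays: Tat−/Meth replicate 5 carried 5 of the 9 found in its group, and Tat−/Sal replicates 1, 2 and 3 carried 12 of the 13 found in theirs. The Tat+/Sal arrays had 2 and the Tat+/Meth arrays 5.

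Among the tested members, Tnfrsf1a and Tnfrsf22 were the ones called in Tat−/Meth vs. Tat−/Sal, both lower. That is 2 of 24 (8.33%), beside 6.85% of all genes tested. At an adjusted *p* under 0.05 without the fold limit 12 of 24 members passed (50%, beside 50.2% of all genes), 5 of them higher and 7 lower. Over all genes the corresponding shares were 35% higher and 15.3% lower. The median log2 difference was 0.03 over the 24 members and 0.14 over all genes, and without scaling it became −0.39 and −0.29. The split by direction moved with it. Without scaling 1 member passed higher (Tnfrsf9) and 12 lower, beside 0.827% and 47.2% of all genes, and with median scaling 4 passed higher and 4 lower, beside 18.9% and 9.21%. Tnfrsf1a, Tnfrsf10b, Tnfrsf13b and Tnfrsf22 passed lower and Tnfrsf9 higher under each of the 3 scalings. In whole tissue, fewer cells that express a gene and less RNA per cell cannot be told apart.

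Tnfrsf1a, the main receptor of TNF, had the largest difference of the 24 members in both comparisons with Tat−/Meth. On its brighter probe the 5 Tat−/Sal arrays gave 11.17, 11.12, 11.07, 11.12 and 11.12, and the 5 Tat−/Meth arrays 9.86, 10.30, 9.78, 9.78 and 9.96. In Tat+/Sal the values were 10.98, 11.37, 10.98, 11.31 and 11.31, and in Tat+/Meth 11.10, 11.21, 11.26, 11.40 and 11.36. The Tat−/Meth arrays were thus below every array of the other groups. The log2 difference was −1.18 ± 0.10 (± SE) in Tat−/Meth vs. Tat−/Sal (limma, adjusted *p* = 1.96e-08) and 1.33 ± 0.10 in Tat+/Meth vs. Tat−/Meth (3.87e-09), or 2.27-fold lower and 2.51-fold higher.

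On the scaled values a dimmer probe of the same Tnfrsf1a transcript record gave the opposite order. It was at 10.53, 10.47, 10.30, 10.32 and 10.35 in Tat−/Sal and at 10.81, 10.73, 10.66, 10.60 and 10.82 in Tat−/Meth. Here the Tat−/Meth arrays were above every other array, among which the highest was 10.53. In a fit of every probe the log2 difference of the dimmer probe was 0.33 ± 0.07 in Tat−/Meth vs. Tat−/Sal (adjusted *p* = 0.00101) and −0.36 ± 0.07 when Tat+/Meth was compared with Tat−/Meth (0.000438). The mean of both probes was −0.43 in the former comparison, which ended the call. Dimmer probes were fitted with the 75th percentile scaling alone. Before scaling this percentile was at 9.64 to 9.79 in Tat−/Meth and at 9.92 to 10.33 in Tat−/Sal. The scaling thus raised Tat−/Meth relative to Tat−/Sal, by nearly the same amount for every probe. Without it the difference of Ltbr went from −0.42 to −0.84, a larger shift than the 0.33 of the dimmer probe. The opposite order therefore rests on the scaling, although the dimmer probe was not fitted without it.

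Opposite orders on the scaled values were also seen for Tnfrsf9, the costimulatory receptor also known as 4-1BB. On its brighter probe Tat−/Sal was at 11.48, 11.36, 11.18, 11.54 and 11.20 and Tat−/Meth at 11.95, 12.19, 12.08, 12.29 and 12.27. On its dimmer probe Tat−/Sal was at 6.64, 6.70, 6.67, 6.40 and 7.08 and Tat−/Meth at 5.15, 5.55, 5.46, 5.71 and 4.26. Each probe separated the groups without overlap, in opposite directions. The log2 difference in Tat−/Meth vs. Tat−/Sal was 0.80 ± 0.09 on the brighter probe (adjusted *p* = 1.57e-06, or 0.38 without scaling, 0.0345) and −1.47 ± 0.21 on the dimmer probe (1.36e-05), which carried the mark on 4 of the Tat−/Meth arrays.

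Tnfsf12, the ligand known as TWEAK, was the third such member. The brighter probe was at 10.28, 10.11, 10.38, 10.26 and 10.50 in Tat−/Sal and at 9.99, 9.93, 9.91, 9.83 and 9.96 in Tat−/Meth. The dimmer probe was at 7.54, 7.55, 7.75, 7.57 and 7.80 and at 8.12, 8.38, 8.20, 8.13 and 8.57. Its log2 differences were −0.38 ± 0.07 (adjusted *p* = 0.000114) and 0.64 ± 0.11 (0.000115). The brighter probe did not pass with median scaling. Tnfrsf12a, the receptor of TWEAK, which has 1 probe, did not pass the test (−0.16 ± 0.15).

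In all, 5 members had 2 probes that passed the signal limit, and 3 of these 5 had 1 probe passing higher and the other passing lower in Tat−/Meth vs. Tat−/Sal. Among all 3898 genes with at least 2 tested probes this share was 8.7%. The same 3 members did so when Tat+/Meth was set against Tat−/Meth, beside 9.65%. In the interaction it was again 3 of 5, beside 4.46%, and in the 3 comparisons without Tat−/Meth 0 of 5, beside 0% of all such genes. These shares are of the scaled signal and were not recomputed without scaling. In Tat−/Meth vs. Tat−/Sal the opposite order of the Tnfrsf1a probes rests on the scaling. The probes of Tnfrsf13b, the fourth member, both fell (−0.91 ± 0.16 and −0.57 ± 0.21), and those of Tnfrsf19 gave 0.12 ± 0.09 and 0.40 ± 0.24 without passing. Whether the paired probes read different transcript ends or different neighbouring sequences was not tested, as probe sequences were not used here.

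**Figure D2:**
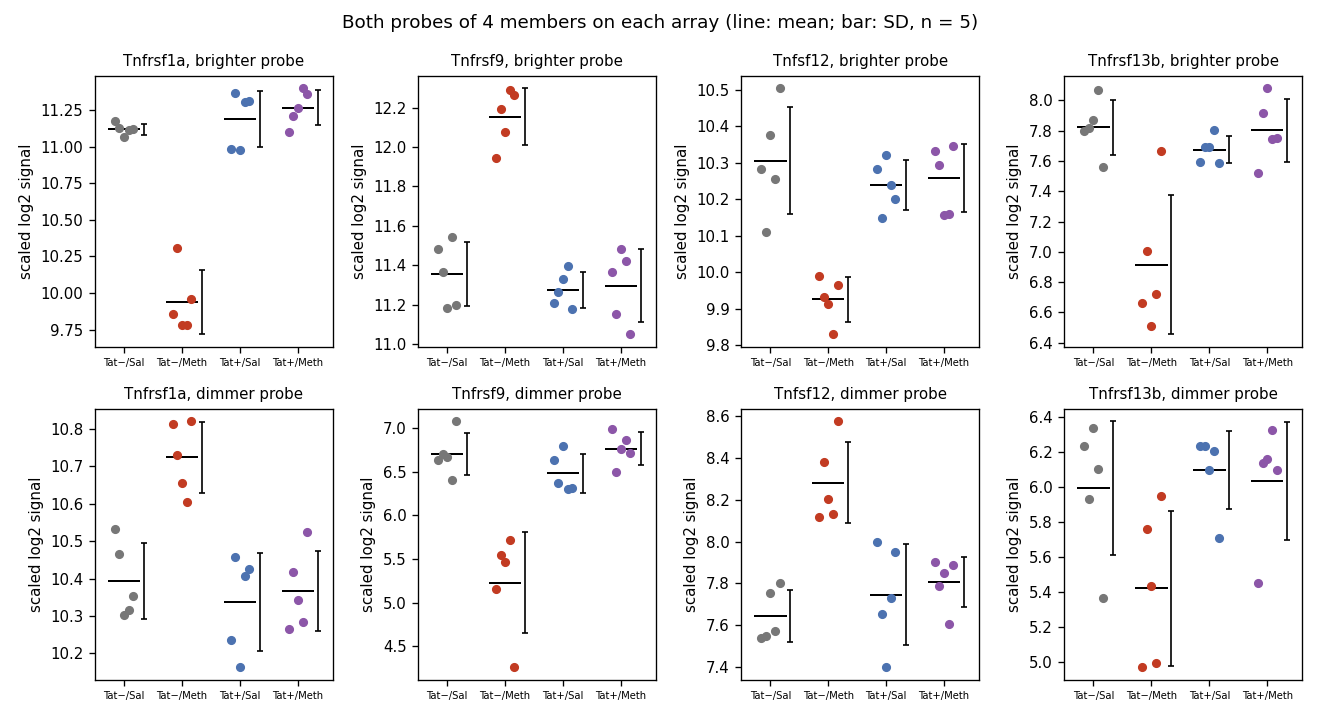
Scaled log2 signal on each array for both probes of Tnfrsf1a, Tnfrsf9, Tnfsf12 and Tnfrsf13b, the brighter probe above and the dimmer below, with the group mean (line) and SD (bar, n = 5). Tat−/Meth lies on opposite sides of the other groups in the first 3 columns, and its mean is below theirs on both probes in the last.

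The other death domain receptors, which can recruit the caspase adaptor FADD or TRADD, gave smaller differences. Tnfrsf10b, the receptor of TRAIL in mice, was at 7.82, 7.54, 7.28, 7.36 and 7.63 in Tat−/Sal and at 6.95, 6.74, 7.01, 6.76 and 6.76 in Tat−/Meth. The groups did not overlap, and the log2 difference was −0.68 ± 0.12 (adjusted *p* = 0.00011). Fas, the receptor of Fas ligand, was at 8.67 ± 0.20 in Tat−/Sal, 8.87 ± 0.22 in Tat−/Meth, 8.69 ± 0.13 in Tat+/Sal and 8.81 ± 0.15 in Tat+/Meth (mean ± SD, n = 5) and passed in no comparison. Tnfrsf21, known as death receptor 6 and found on neurons and oligodendrocytes, differed by 0.25 ± 0.11 in Tat−/Meth vs. Tat−/Sal, and Tnfrsf25, the receptor of Tnfsf15, by −0.22 ± 0.15. Neither passed.

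Decoy receptors were lower in Tat−/Meth as far as they changed. Tnfrsf22, a mouse decoy receptor of TRAIL, was at 6.83, 6.88, 6.93, 6.75 and 7.07 in Tat−/Sal and at 5.99, 5.69, 5.87, 6.04 and 5.74 in Tat−/Meth, without overlap. In Tat+/Sal it was at 6.82, 6.87, 6.35, 6.06 and 6.21 and in Tat+/Meth at 6.88, 6.25, 5.88, 6.79 and 6.99. The Tat+ arrays ranged between both Tat− groups. The log2 difference was −1.03 ± 0.19 in Tat−/Meth vs. Tat−/Sal (adjusted *p* = 0.000209, 2.04-fold), while Tat+/Meth exceeded Tat−/Meth by 0.69 ± 0.19 (0.00483).

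The call of Tnfrsf22 lay at the fold limit. It was lost without replicate 2 (−0.98) or 5 (−0.99) of Tat−/Meth or replicate 5 of Tat−/Sal (−0.98), each still at an adjusted *p* under 0.05. Tnfrsf23, its close paralog, fell by 0.26 ± 0.10 on the log2 scale in Tat−/Meth vs. Tat−/Sal (adjusted *p* = 0.038), a pass that did not survive 5 of the 20 removals of single arrays, those of Tat−/Meth replicate 1 (−0.19), 2 (−0.26) or 3 (−0.27) or of Tat−/Sal replicate 4 (−0.21) or 5 (−0.21). These paralogs are similar in sequence, and a probe of one may also bind RNA of the other. Tnfrsf11b, which captures the ligand of Tnfrsf11a, was at 6.30 ± 0.27 in Tat−/Sal, 6.09 ± 0.27 in Tat−/Meth, 6.19 ± 0.20 in Tat+/Sal and 6.24 ± 0.17 in Tat+/Meth and passed in no comparison.

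Among the TRAF-binding receptors Tnfrsf13b fell most in Tat−/Meth vs. Tat−/Sal. This receptor, known as TACI, binds BAFF and APRIL on B cells. The Tat−/Sal arrays gave 7.80, 7.82, 7.87, 8.07 and 7.56 and the Tat−/Meth arrays 6.66, 7.01, 6.51, 6.72 and 7.67. Tat−/Meth replicate 5 lay within the Tat−/Sal range and the other 4 below it. The log2 difference was −0.91 ± 0.16 (adjusted *p* = 0.000166), and without that replicate it was −1.10.

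Ltbr, the lymphotoxin beta receptor and a starter of the noncanonical NF-κB pathway, was lower as well. It was at 10.61, 10.58, 10.35, 10.45 and 10.38 in Tat−/Sal and at 10.19, 10.23, 10.00, 9.91 and 9.96 in Tat−/Meth, again without overlap. Its log2 difference was −0.42 ± 0.07 in Tat−/Meth vs. Tat−/Sal (adjusted *p* = 0.000101) and 0.38 ± 0.07 in Tat+/Meth vs. Tat−/Meth (0.000198). With median scaling neither passed, and the former was at −0.30 (limma, adjusted *p* = 0.209). Without scaling both passed.

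TRAF-binding receptors also rose. Tnfrsf1b, the TNF receptor without a death domain, was at 5.37, 5.01, 5.14, 5.26 and 6.04 in Tat−/Sal and at 5.41, 5.75, 7.17, 6.05 and 7.08 in Tat−/Meth. The ranges overlapped, although 3 Tat−/Meth arrays exceeded the highest of Tat−/Sal. The log2 difference of 0.93 ± 0.33 passed (adjusted *p* = 0.0252), but not without Tat−/Meth replicate 3 (0.71), Tat−/Meth replicate 5 (0.73), Tat−/Sal replicate 2 (0.84) or Tat−/Sal replicate 3 (0.87). Of the 24 tested members Tnfrsf1b was the 1 that entered through a single group, Tat−/Meth, with a mean of 6.29 against 5.14 to 5.37 in the others, so that a higher value there was a condition of its being tested. Without scaling its difference was 0.51 (adjusted *p* = 0.164). Tnfrsf1b was well above background on 2 of 5 arrays in each Tat+ group and on 5 of 5 in each Tat− group.

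Tnfrsf17, the plasma cell receptor of BAFF and APRIL, was at 6.26, 5.62, 6.11, 5.80 and 6.21 in Tat−/Sal and at 6.44, 6.81, 6.50, 6.07 and 7.03 in Tat−/Meth (0.57 ± 0.15, adjusted *p* = 0.00459). Without scaling this difference was 0.15 and did not pass (0.449). Tnfrsf4, the T cell receptor known as OX40, was at 9.17 to 9.31 in Tat−/Sal and in Tat−/Meth at 9.44 to 9.68, 0.30 ± 0.09 higher (adjusted *p* = 0.00974) but 0.12 lower without scaling. Tnfrsf17, Tnfrsf4 and Tnfrsf13b are all known mainly from lymphocytes.

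Lymphocyte markers were therefore read beside them. Of 10 markers 3 were well above background on all arrays (Cd3e, Cd4 and Nkg7), and Cd8a and Ms4a1 on 0 of 20. In Tat−/Meth vs. Tat−/Sal the log2 difference was −2.18 for Cd4 and −0.88 for Cd3e, and Nkg7 (−0.15 ± 0.08) did not pass. The summed scaled signal of the list, on a linear scale, was 12319 to 14312 in Tat−/Meth and 47660 to 88278 over the other groups. Most of it was Cd4, and the sum of the other 9 markers was 2278 to 3136 in Tat−/Meth and 2926 to 4187 over the other groups. The B cell marker Cd79a carried the mark on 3 arrays in Tat−/Sal, on 2 in Tat+/Meth and on 0 in each of the other groups. The part of these cells in the values of Tnfrsf13b, Tnfrsf17 and Tnfrsf4 was not tested. Of the 12 microglial markers 5 were higher and 2 lower at an adjusted *p* under 0.05 in the same comparison, beside 35% and 15.3% of all genes. Itgam was the 1 microglial marker called, at −1.07 ± 0.10 (limma, adjusted *p* = 6.57e-08). The median log2 difference of the 12 was 0.10, beside 0.14 over all genes. Their summed signal was 174545 to 192390 in Tat−/Meth and 225157 to 280463 over the other groups. A linear sum is weighted to the brightest markers, and the part of each marker in the lower sum was not examined.

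The remaining tested receptors of this class did not pass in any comparison. Tnfrsf19, an orphan receptor of neural progenitors and astrocytes, was at 12.68 ± 0.23 in Tat−/Sal, 12.81 ± 0.10 in Tat−/Meth, 12.59 ± 0.10 in Tat+/Sal and 12.67 ± 0.14 in Tat+/Meth. In the same order of groups Tnfrsf11a, the receptor RANK of osteoclast precursors, was at 9.99 ± 0.19, 10.06 ± 0.16, 10.09 ± 0.04 and 10.18 ± 0.15, and Tnfrsf12a at 8.98 ± 0.09, 8.82 ± 0.25, 8.84 ± 0.25 and 8.70 ± 0.36. Tnfrsf14, which binds LIGHT and the inhibitory receptor BTLA, was at 7.70 ± 0.42, 7.71 ± 0.39, 8.19 ± 0.41 and 8.13 ± 0.15 (mean ± SD, n = 5).

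Of the 6 ligands tested, Ltb and Tnfsf12 passed in Tat−/Meth vs. Tat−/Sal. Ltb, which anchors lymphotoxin alpha to the membrane as the ligand of Ltbr, was at 7.92, 7.46, 7.90, 7.60 and 6.46 in Tat−/Sal and at 8.40, 8.002, 8.12, 8.19 and 8.33 in Tat−/Meth. In Tat+/Sal the arrays gave 7.64, 8.33, 7.73, 7.84 and 7.99 and in Tat+/Meth 7.996, 6.87, 7.51, 7.86 and 7.14. Ltb was thus higher on every Tat−/Meth array than on any Tat−/Sal array, and Ltbr was lower. The log2 difference of Ltb was 0.74 ± 0.25 (adjusted *p* = 0.0176) in this comparison and −0.73 ± 0.25 (0.0171) in Tat+/Meth vs. Tat−/Meth, and the latter was lost without Tat+/Meth replicate 2 (−0.58, 0.0552). In the former it was 0.49 without Tat−/Sal replicate 5, and still passed. Without scaling neither passed, at 0.32 (adjusted *p* = 0.381) and −0.39 (0.312).

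Tnfsf13b, the B cell survival factor BAFF, was at 6.29, 6.09, 5.81, 5.85 and 7.22 in Tat−/Sal and at 6.90, 6.00, 6.71, 6.58 and 7.42 in Tat−/Meth, which did not pass (0.47 ± 0.27). It was lower in Tat+/Meth, at 5.93, 6.48, 5.53, 5.75 and 5.59, than in Tat−/Meth (−0.87 ± 0.27, adjusted *p* = 0.0119), with 4 of 5 arrays below every Tat−/Meth array, but did not pass without scaling (−0.53, 0.0955). Tnfsf10, known as TRAIL, varied widely within groups, from 5.62 to 8.39 in Tat−/Sal and from 5.66 to 7.93 in Tat+/Meth, and its log2 difference of −0.76 ± 0.44 in Tat−/Meth vs. Tat−/Sal did not pass. Tnfsf9, the ligand of Tnfrsf9, was at 7.75 ± 0.40 and 7.81 ± 0.27 in these groups, and Tnfsf15 at 8.27 ± 0.21 and 8.43 ± 0.25 (mean ± SD, n = 5).

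**Figure D3:**
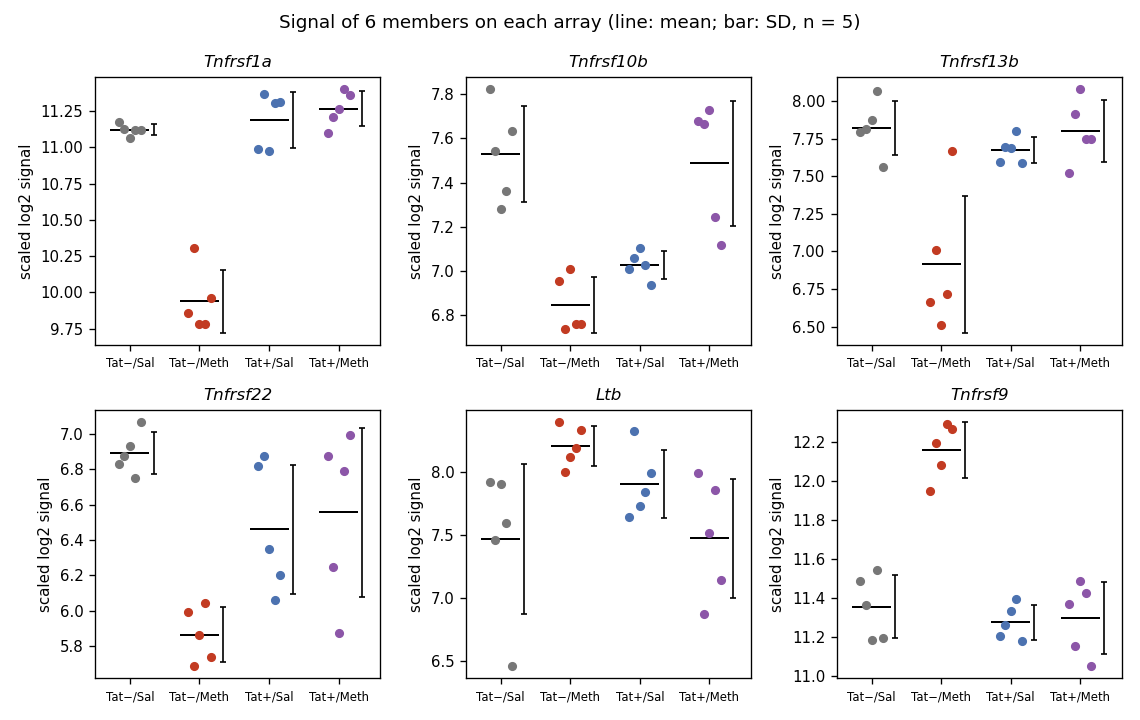
Scaled log2 signal on each array of the 5 members called in the interaction of Tat and Meth and of Tnfrsf9, by group, with the mean (line) and SD (bar, n = 5). Tat−/Meth lies below the other groups for Tnfrsf1a, above them for Tnfrsf9, and overlaps at least 1 of them for Tnfrsf10b, Tnfrsf13b, Tnfrsf22 and Ltb.

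In Tat+/Meth vs. Tat−/Meth Tnfrsf1a was called, higher, which is 1 of 24 members (4.17%, beside 7.22% of all genes). At an adjusted *p* under 0.05 alone 11 of 24 passed (45.8%, beside 54.4%). The 7 that were higher were Ltbr, Tnfrsf10b, Tnfrsf13b, Tnfrsf1a, Tnfrsf22, Tnfrsf23 and Tnfsf12, and the 4 that were lower Ltb, Tnfrsf1b, Tnfrsf9 and Tnfsf13b. Over all genes 16% were higher and 38.5% lower. Without scaling 10 members were higher and 1 lower (Tnfrsf9), beside 35% and 2.14% of all genes, and with median scaling 3 and 5, beside 9.5% and 29.8%. Tnfrsf1b was tested only through its level in Tat−/Meth, so its lower value in Tat+/Meth was a condition of testing here too. Its pass (−0.98 ± 0.33) was lost without Tat−/Meth replicate 3 (−0.76) or replicate 5 (−0.78), and that of Tnfrsf23 (0.28 ± 0.10) without Tat−/Meth replicate 1 (0.21) or Tat+/Meth replicate 5 (0.20). This comparison and Tat−/Meth vs. Tat−/Sal share the Tat−/Meth arrays with opposite sign, so opposite signs between them are not separate evidence. The count at 2-fold ranged from 1 to 3 when 1 array was left out, with 2 without Tat−/Meth replicate 1, 4 or 5 or Tat+/Meth replicate 5, and 3 without Tat−/Meth replicate 2 or Tat+/Meth replicate 2.

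**Figure D4:**
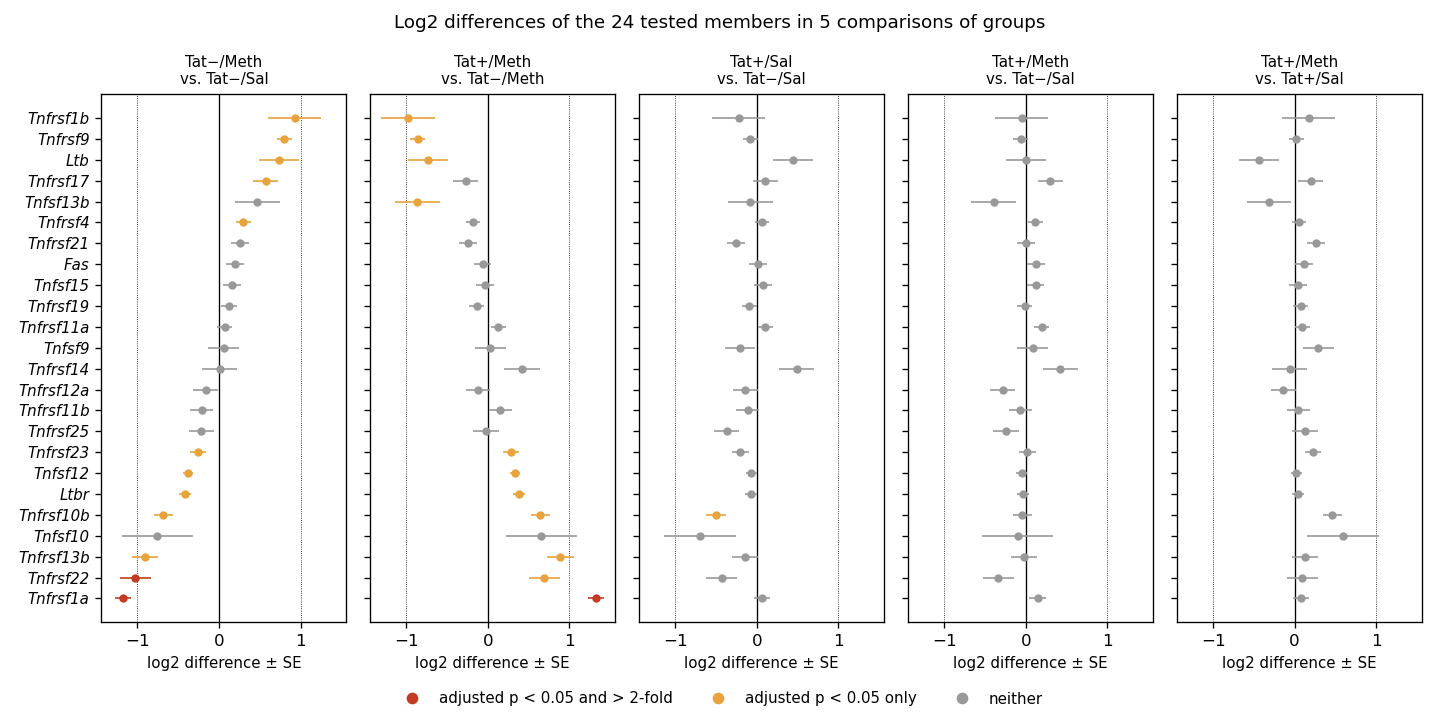
Log2 difference ± SE of the 24 tested members in 5 comparisons of groups, ordered by the first comparison. Dotted lines mark 2-fold. Members at an adjusted *p* under 0.05 are coloured, and those also above 2-fold are red. Passing members lie in the 2 comparisons with Tat−/Meth and, for Tnfrsf10b, in Tat+/Sal vs. Tat−/Sal.

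Comparisons that did not involve slide 1 showed few differences. In Tat+/Sal vs. Tat−/Sal 0 of 24 members were called (beside 0.0199% of all genes), and 1 passed at an adjusted *p* under 0.05 (4.17%, beside 1.42%). This was Tnfrsf10b, which fell by 0.50 ± 0.12 on the log2 scale (adjusted *p* = 0.042), at 7.01, 7.06, 7.10, 7.03 and 6.93 in Tat+/Sal. Unadjusted, 5 members had *p* under 0.05 (20.8%, beside 20.5%).

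In Tat+/Meth, the group split between slides, Tnfrsf10b was at 7.68, 7.66 and 7.73 on slide 2 and at 7.24 and 7.12 on slide 3. The difference between these slides, −0.51 ± 0.12, did not pass over all genes (limma, adjusted *p* = 0.999), and 0 genes did. With slide as a fixed block the log2 difference in Tat+/Sal vs. Tat−/Sal was 0.01 ± 0.15 (adjusted *p* = 0.995). Removing each of the 20 arrays in turn gave −0.56 to −0.43 and ended its pass 11 times. These were the fits without Tat−/Sal replicate 1, 2, 4 or 5, Tat+/Sal replicate 3, 4 or 5, Tat−/Meth replicate 2, 3 or 4, or Tat+/Meth replicate 2, and the value farthest from the full fit, −0.43 (adjusted *p* = 0.132), was without Tat−/Sal replicate 1.

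**Figure D5:**
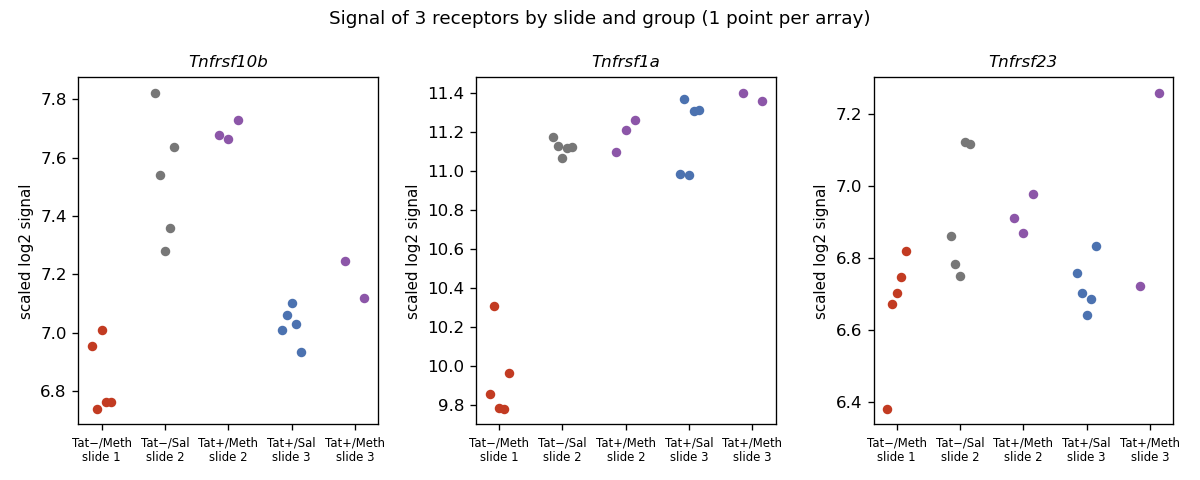
Scaled log2 signal of Tnfrsf10b, Tnfrsf1a and Tnfrsf23 on each array (1 point each), by slide and group. Tnfrsf10b in Tat+/Meth is at 7.66 to 7.73 on slide 2 and at 7.12 and 7.24 on slide 3, next to the other group of each slide, and Tnfrsf1a is lower on slide 1 than on slides 2 and 3.

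In Tat+/Meth vs. Tat+/Sal 0 of 24 members were called and 0 passed without the fold limit (limma, beside 0% of all genes for each). Unadjusted, 3 members had *p* under 0.05 (12.5%, beside 12.2%). They were Tnfrsf10b (0.46 ± 0.12, or 0.15 ± 0.11 with slide as a block), Tnfrsf21 (0.26 ± 0.11) and Tnfrsf23 (0.22 ± 0.10). For 23 of 24 members the 95% interval of the log2 difference lay within 2-fold in either direction, the exception being Tnfsf10, which reached 1.51.

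Tat+/Meth vs. Tat−/Sal likewise had 0 of 24 members called and 0 that passed without the fold limit, beside 0% of all genes. Unadjusted, Tnfrsf11a alone had *p* under 0.05 (0.19 ± 0.09, 4.17%, beside 7.79%). The intervals of 23 of 24 members lay within 2-fold and those of 17 within 1.5-fold, and that of Tnfsf10 reached −1.02. Among the 3 Tat+/Meth and 5 Tat−/Sal arrays that shared slide 2, and among the 2 Tat+/Meth and 5 Tat+/Sal arrays that shared slide 3, 0 members passed (smallest adjusted *p* 0.730 and 0.961). These comparisons came from a fit of all arrays with Tat+/Meth split by slide, and gave the same estimates as slide as a fixed block. With 3 arrays against 5 and 2 against 5 they bound the differences less closely.

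The interaction, in which the Meth effect of Tat− mice is subtracted from that of Tat+ mice, was called for 5 of 24 members (20.8%, beside 7.44% of all genes). At an adjusted *p* under 0.05 alone 9 of 24 passed (37.5%, beside 36%), 7 higher and 2 lower, where over all genes 12.4% were higher and 23.6% lower. Without scaling 11 passed higher and 0 lower, beside 39.1% and 0.304%, and with median scaling 3 and 3, beside 6.88% and 10.1%. Values were higher for Tnfrsf1a (1.26 ± 0.14, adjusted *p* = 1.71e-06), Tnfrsf10b (1.14 ± 0.17, 3.88e-05), Tnfrsf22 (1.12 ± 0.27, 0.00318) and Tnfrsf13b (1.04 ± 0.23, 0.0019), and lower for Ltb (−1.17 ± 0.35, 0.0131). In the fit of every probe the dimmer probe of Tnfrsf13b was at 0.51 ± 0.30 (limma, adjusted *p* = 0.199) and did not pass. Tnfrsf10b and Tnfrsf22, both higher here, are the signalling receptor and a decoy receptor of TRAIL. The count was 2 of 21 with the mean over probes and 1 of 39 with normexp background correction, where Tnfrsf1a alone stayed above 2-fold.

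Single arrays decided part of these calls. The value of Ltb was −0.92 without Tat−/Sal replicate 5, at 6.46 its lowest array. That of Tnfrsf13b was 0.97, 0.94 and 0.99 without replicate 1, 3 and 4 of Tat−/Meth, 0.98 without replicate 4 of Tat−/Sal and 0.97 without replicate 3 of Tat+/Meth. All of these stayed at an adjusted *p* under 0.05. Without scaling Ltb was at −0.69 and did not pass (0.187). Since Tat−/Meth enters the interaction, slide 1 enters it too, and so do slides 2 and 3 through Tat+/Meth and the saline groups. For Tnfrsf10b the Tat+ part of the interaction, 0.46, was 0.15 with slide as a block, and the interaction itself could not be fitted with that block.

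Promoters were read for the called members, to show what their start regions hold. The RefSeq-based table (GRCm38.p6) has an entry for 30 of the 39 members, among them Ltb, Tnfrsf1a and Tnfrsf13b of the 5 called. Each sequence below runs 5′ to 3′ on the coding strand from 250 bases before the start to 50 after it, and capitals mark a motif match.
Ltb, chr17:35194257-35194556, plus strand: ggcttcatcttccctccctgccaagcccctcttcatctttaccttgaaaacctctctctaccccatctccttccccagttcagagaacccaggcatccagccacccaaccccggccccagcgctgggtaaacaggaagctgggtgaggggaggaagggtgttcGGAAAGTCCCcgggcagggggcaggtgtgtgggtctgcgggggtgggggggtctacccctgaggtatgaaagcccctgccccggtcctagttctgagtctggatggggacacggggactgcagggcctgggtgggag
Tnfrsf1a, chr6:125349473-125349772, plus strand: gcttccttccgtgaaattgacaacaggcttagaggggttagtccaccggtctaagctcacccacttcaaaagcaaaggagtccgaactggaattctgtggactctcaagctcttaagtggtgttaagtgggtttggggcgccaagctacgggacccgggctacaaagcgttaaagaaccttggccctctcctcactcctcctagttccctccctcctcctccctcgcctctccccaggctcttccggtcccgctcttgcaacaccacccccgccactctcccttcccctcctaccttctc
Tnfrsf13b, chr11:61126505-61126804, plus strand: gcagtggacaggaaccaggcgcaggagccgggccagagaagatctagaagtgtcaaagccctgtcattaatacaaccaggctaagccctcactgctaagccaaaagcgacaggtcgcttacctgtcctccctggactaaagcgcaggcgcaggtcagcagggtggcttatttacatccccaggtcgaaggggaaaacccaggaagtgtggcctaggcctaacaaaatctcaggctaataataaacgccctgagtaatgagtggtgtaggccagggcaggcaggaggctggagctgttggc

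Motifs for NF-κB, the TATA box and AP-1 were searched on both strands of all 32851 promoters of the table. The κB motif, whose match is the run in capitals, was in the promoter of Ltb on the minus strand, 87 bases before the start, and in 1.63% of all promoters. Of the 34 promoters of members 3 held it (8.82%), those of Ltb, Tnfrsf25 and Tnfrsf9. The TATA box TATAAA was in 17.6% of the members' promoters and 13.6% of all, and the AP-1 motif TGANTCA in 17.6% and 7.81%. No letters of these motifs were found in the windows of Tnfrsf1a and Tnfrsf13b. A match is a description of sequence and was not tied to any signal value.

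Genes that act downstream of the receptors were counted from lists of known function, on the scaled signal. In Tat−/Meth vs. Tat−/Sal the median log2 difference over all genes was 0.14 with scaling and −0.29 without. The shares of all genes that passed without scaling were 0.827% higher and 47.2% lower. Single genes of these lists were not followed without scaling. Leaving it out shifts every difference in this comparison by nearly the same amount, as for Ltbr from −0.42 to −0.84. In each comparison with Tat−/Meth, group and slide cannot be told apart. Of 27 adaptors and death signalling genes tested, 9 were higher and 1 lower in Tat−/Meth vs. Tat−/Sal at an adjusted *p* under 0.05, and 0 were called at 2-fold. Over all genes 35% were higher, 15.3% lower and 6.85% called. Traf2, the adaptor shared by most receptors of the TRAF-binding class, was 0.41 ± 0.06 higher on the scaled signal. That is about the size of the shift, so no rise of Traf2 can be read without scaling. Mlkl, the executioner of necroptosis, was 0.94 ± 0.25 lower. Of 27 kinases and NF-κB subunits 10 were higher and 5 lower. Relb, the subunit of the noncanonical pathway that Ltbr starts, was the one called, −1.84 ± 0.15 in Tat−/Meth vs. Tat−/Sal (adjusted *p* = 1.79e-08) and 1.59 ± 0.15 in Tat+/Meth vs. Tat−/Meth.

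Of 7 genes for shedding and processing of ligands and receptors, 5 were higher and 1 lower in Tat−/Meth vs. Tat−/Sal at an adjusted *p* under 0.05. Over all genes these shares were 35% and 15.3%. Adam17, the protease that releases TNF and its receptors, was 0.60 ± 0.16 higher on the scaled signal (adjusted *p* = 0.00473). The shift without scaling is smaller than this difference and keeps its sign, but whether Adam17 passed without scaling was not examined. Of 13 tested NF-κB target genes 3 were higher and 1 lower, beside the same 35% and 15.3% of all genes. Tnfaip2, induced by TNF in endothelial and myeloid cells, was 0.92 ± 0.16 lower, and Bcl3, a nuclear IκB protein, 0.74 ± 0.19 higher. Of the 5 superfamily members outside the naming rule (Eda, Edar, Eda2r, Ngfr and Relt) 3 were tested and 0 passed in this comparison, beside 50.2% of all genes.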

How the data were processed

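Total brain RNA of 20 mice was measured on one-colour (cy3) Agilent mouse arrays, 5 per group. The intensity values that the authors deposited are Feature Extraction output, already background-subtracted by the scanner software, one file per array. A joint table of the same arrays, in which the authors deposited linear intensity values with a constant added per array, was used as an alternative after taking log2 and scaling. The methods name another scanner and dye than the file headers do. Groups came from the sample titles.

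Control spots and outlier spots were left out, the 75th percentile of an array set its scale, spots of a probe were averaged, and the brightest probe over all arrays stood for its gene. Symbols were taken from RefSeq accessions. Genes with a mean of at least 6 in a group were tested with limma 3.58.1 in R 4.3.3 (lmFit and eBayes on all 4 groups, Benjamini–Hochberg over 15102 genes). *p*-values set differences between groups against the spread between single mice within groups, and the main fit did not account for slide. Python 3.11.15 (numpy 2.4.6, pandas 2.3.3) made the tables and matplotlib 3.10.9 the figures. The fits were tested on simulated data. The number of arrays limits the precision.

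The members, marker lists and pathway lists were chosen with earlier results of these data known. Named with values were members called, the 3 largest changes past the adjusted *p* in each comparison and direction, members well above background on all arrays, and a set of canonical ligands and receptors. Of each downstream list the 2 largest changes past the adjusted *p* could be named. Results were recomputed with other scalings, background corrections, filters, probe rules, variance models, slide and replicate blocks and with each array left out. The comparisons within slide 2 and within slide 3 were chosen after seeing the data.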

Additional observations from a re-analysis of the deposited data

Results flagged for a closer look

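The effect of Meth differed between Tat+ and Tat− mice for 9 of 24 members (37.5%, beside 36% of all genes), as tested by the interaction in limma. The difference of effects on the log2 scale was 1.26 for Tnfrsf1a, 1.14 for Tnfrsf10b, 1.12 for Tnfrsf22, 1.04 for Tnfrsf13b, 0.48 for Tnfrsf23, 0.46 for Ltbr and 0.40 for Tnfsf12. It was −0.78 for Tnfrsf9 and −1.17 for Ltb. The adjusted *p* ranged from 1.71e-06 (Tnfrsf1a) to 0.0131 (Ltb). On the scaled signal the dimmer probes of Tnfrsf1a (−0.30), Tnfrsf9 (1.75) and Tnfsf12 (−0.58) gave the opposite sign. All of these rest on the Tat−/Meth arrays, which alone were on slide 1, so that group and slide cannot be told apart.

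Single arrays stood apart from their group for 2 members. In Tat−/Sal replicate 1 Tnfrsf4 was at 9.17 and the other 4 arrays at 9.29 to 9.31, a gap of 0.852 of the range of the group. In the same array Tnfsf15 was at 7.90 against 8.31 to 8.40, a gap of 0.820 of the range. These were 2 of 96 groups examined, and chance alone gives about 1 in 20.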

How the results depend on the processing

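Of 33 member differences past the adjusted *p*, 33 remained past it with outlier spots kept, with slide as a random block and with a filter on probes well above background. The pass was lost for 13 with median scaling, 10 without scaling, 6 each with quantile normalization and normexp, 4 with the deposited joint table, 3 with a variance trend and 2 without filter. Of the 24 outside the interaction it was lost for 7 with the methods' t-test after adjustment and 4 with only the compared groups. The causes were not tested.

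Members called in Tat−/Meth vs. Tat−/Sal numbered 2. They became 5 without scaling, 1 with normexp, the joint table or slide as a random block, 0 with the mean over probes, 12 without the fold limit, 0 at an adjusted *p* under 0.01 and 3-fold, and 2 to 3 with 1 array left out. In Tat+/Meth vs. Tat−/Meth 1 became 3 with quantile normalization or without scaling, 4 with median scaling, 2 with every probe, 0 with the mean over probes or the stricter limits, 11 without the fold limit, and 1 to 3 with 1 array left out. The interaction went from 5 to 1 with normexp, 2 with the joint table or the mean over probes, 9 without the fold limit, 0 at the stricter limits, and 4 to 5 with 1 array left out. Without the fold limit Tat+/Sal vs. Tat−/Sal had 1. Downstream genes called without scaling numbered 4 in the interaction and 4 in Tat−/Meth vs. Tat−/Sal.

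Signs turned in 17 results. For the 2 comparisons with Tat−/Meth (Tat−/Sal as the other group, then Tat+/Meth) and the interaction the dimmer probe gave 0.33, −0.36 and −0.30 for Tnfrsf1a, −1.47, 1.54 and 1.75 for Tnfrsf9, and 0.64, −0.47 and −0.58 for Tnfsf12. The mean over probes gave −0.33, 0.34 and 0.49 for Tnfrsf9 and 0.13, −0.071 and −0.089 for Tnfsf12. Tnfrsf4 was at −0.12 without scaling in Tat−/Meth vs. Tat−/Sal, and Tnfrsf10b at 0.0093 with slide as a fixed block in Tat+/Sal vs. Tat−/Sal. A fixed slide block could be fitted only without Tat−/Meth.

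With the replicate number as a block the counts stayed at 2, 1 and 5 and 33 of 33 differences stayed past the adjusted *p*. Same-numbered arrays correlated at −0.176 to 0.358 (8 of 30 pairs above 0.1), so the numbers were not taken to pair mice. Dim probes limit what can be seen, since 15 members were below the signal limit.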

Other observations

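In Tat+/Meth vs. Tat−/Meth, 1 adaptor gene was higher and 11 were lower, 3 kinase and NF-κB subunit genes were higher and 11 lower, 1 shedding gene was higher and 4 lower, and 1 NF-κB target gene was higher and 5 lower, beside 16% higher and 38.5% lower over all genes. Of the NF-κB target genes 1 was called higher and 1 lower there. Tnfaip2 was 1.13 ± 0.16 higher on the log2 scale (limma, adjusted *p* = 1.63e-05), and Ccl2 was at −1.06 ± 0.36 (0.019). Sppl2a, a protease that cleaves the membrane stubs of TNF ligands, was 0.42 ± 0.06 lower (1.72e-05). These counts and values are of the scaled signal. Over all genes 35% passed higher and 2.14% lower without scaling, and single genes of the lists were not followed without it.

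Tnfsf10 had the widest range of the 24 tested members over the 20 arrays, with 8.39 in Tat−/Sal replicate 4 and 7.93 in Tat+/Meth replicate 4 and 5.32 to 6.66 on the other 18 arrays.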
